A study of Mus musculus with 18 samples.

Results

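Apoptosis regulators of the BCL-2 family, together with Txnip, were followed in MIN6 cells, a mouse insulinoma line used as a model of the β-cell, under ER stress. The 10 genes were taken by name from the 17207 genes listed. They were Txnip, the pro-survival genes Mcl1, Bcl2l1 (Bcl-xL) and Bcl2, the pore-forming effectors Bax and Bak1, the BH3-only genes Bcl2l11 (Bim), Bbc3 (Puma) and Pmaip1 (Noxa), and the death receptor gene Tnfrsf10b. Of the 10, 6 (Txnip, Mcl1, Bcl2l1, Bcl2, Bax and Bcl2l11) had at least 1 read in all 18 libraries and were tested, as were 7794 genes in all, and the other 4 did not pass this filter.

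In mitochondrial apoptosis, BAX and BAK1 open pores in the outer mitochondrial membrane, BCL2, BCL-xL and MCL1 hold them back, and BH3-only proteins such as BIM, PUMA and NOXA bind the pro-survival proteins or activate the effectors. Cytochrome c released from mitochondria then assembles with APAF1 and starts the caspase cascade, whereas TNFRSF10B, a receptor for TRAIL, starts it from the cell surface. TXNIP binds thioredoxin and limits its reducing activity, and in β-cells it is known to be induced by glucose and to take part in cell death.

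MIN6 cells received DMSO for 18 h (control) or 200 µM cyclopiazonic acid (CPA), an inhibitor of the calcium pump of the ER, lasting 1 h (CPA1) or 18 h (CPA18), and 3 experiments were done independently. Fragmented mRNA (mRNA-seq) and ribosome-protected fragments (Ribo-seq) gave 18 libraries. The DMSO cells of 18 h were the control for CPA1 too, and the comparisons of CPA1 and CPA18 with control share these libraries. All cells came from 1 tumor-derived line, and 2 control libraries of experiment 2, for which title and description disagree on the assay, were taken as their titles say.

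Levels are given as RPKM (reads scaled to transcript length and to the aligned reads of the library), summed over the transcripts of a gene, in the order of experiments 1, 2 and 3. Total counts ranged from 520960 to 4755030 in mRNA-seq and from 168129 to 1083297 in Ribo-seq, where the CPA18 libraries had a median of 203108. Ins1, Ins2 and Lars2 together took 51.7%, 28.1% and 32.6% of the mRNA-seq reads in control, 59.9%, 50.5% and 25.8% in CPA1 and 56.3%, 10.4% and 9.81% in CPA18, so that the total to which RPKM is scaled moved with 3 genes. For all tested genes, the median log2 fold change in mRNA-seq was -0.12 in CPA1 and 0.36 in CPA18, and in Ribo-seq 0.07 and 0.39. All 14 β-cell markers checked had reads in every treatment, and they made up 9.76% to 26.7% of the mRNA-seq reads in control and 2.94% to 8.50% in CPA18. The 18 markers of other islet, exocrine, stromal, endothelial and blood cells together made up at most 0.0268% of the reads of any library. Of these, only Gcg, the glucagon gene, had reads in all 18 libraries. In control it had 69.4 ± 34.9 RPKM in mRNA-seq and 170.9 ± 67.9 RPKM in Ribo-seq (SD, n = 3), so it was not absent. These bulk libraries are scaled to their totals and do not measure the number of cells. A change in the mix of cells and a change within each cell cannot be told apart.

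The promoters of Txnip and Mcl1, the genes that passed the test in both assays by 18 h, are shown as the 250 bases before a transcript start, on the plus strand of GRCm38.p6, from RefSeq. For Mcl1 this is the start of the curated transcript, which lies inside the gene record because a predicted transcript begins further upstream. Capitals mark, on either strand, CCAAT boxes (CCAAT), a core site of forkhead factors (GTAAACA) and a carbohydrate response element (a pair of CACGNG repeats 5 bases apart), the kind of element through which the glucose-sensing factors MLXIPL (ChREBP) and MLXIP (MondoA) act. The last of these was searched for after the Txnip sequence had been seen.
Txnip, chr3:96557707-96557956: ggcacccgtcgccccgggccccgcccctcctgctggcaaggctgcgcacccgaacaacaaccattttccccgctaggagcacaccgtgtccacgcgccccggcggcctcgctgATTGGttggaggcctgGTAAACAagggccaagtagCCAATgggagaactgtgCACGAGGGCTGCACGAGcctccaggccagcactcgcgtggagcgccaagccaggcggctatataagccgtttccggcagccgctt
Mcl1, chr3:95658471-95658720: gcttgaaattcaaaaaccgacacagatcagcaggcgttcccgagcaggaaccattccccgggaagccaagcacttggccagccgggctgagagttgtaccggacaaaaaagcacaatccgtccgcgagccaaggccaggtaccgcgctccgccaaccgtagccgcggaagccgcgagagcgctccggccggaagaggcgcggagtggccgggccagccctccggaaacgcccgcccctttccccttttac

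Of the 10 genes, 8 had a promoter in the RefSeq table (250 bases before to 50 after the start), and Pmaip1 and Tnfrsf10b did not match. Txnip held CCAAT boxes at positions -137 and -102 from the start, a forkhead core at -121 and the carbohydrate response element at -85. The pattern searched for that element was in 16 of 32851 promoters (0.0487%) and, among the 8 genes, in Txnip alone. As it was chosen after the Txnip sequence had been seen, this share is not a measure of how rare such elements are. Other forms of the element were not counted. CCAAT boxes were in 37.4% of all promoters and the forkhead core in 3.65%. Bcl2l11 held a CCAAT box at -57 and a forkhead core at -227. Bax held 2 E-boxes (CACGTG, in 7.15% of promoters), and Bcl2 held a core of the cAMP response element (TGACGT, in 7.51%) at -107. The C/EBP-ATF core (TGATGNAA, in 3.97%) and the ER stress response element (CCAAT and CCACG 9 bases apart, in 0.119%) were in none of the 8 windows. These matches describe letters in a short window at a single start of each gene. As for Mcl1, the windows of Bbc3 and Bcl2l1 lie inside the gene record, and other starts were not searched.

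Txnip lies at chr3:96557957-96561857, Mcl1 at chr3:95656944-95663179 and Bbc3 at chr7:16308398-16318334 in GRCm38.p6, all as protein-coding genes. In control cells, Bax (75.6 ± 32.6 RPKM, SD, n = 3) and Txnip (47.4 ± 39.0 RPKM) had the highest mean levels of the 10 genes in mRNA-seq. Their values overlapped, and Txnip was above Bax in experiment 1 and below it in the others. Bcl2l1 (15.5 ± 4.72 RPKM) and Mcl1 (14.6 ± 4.03 RPKM) differed by less than their spread, as did Bcl2l11 (5.21 ± 1.70 RPKM) and Bak1 (4.63 ± 3.46 RPKM). Tnfrsf10b (2.28 ± 1.42 RPKM), Bbc3 (1.05 ± 0.459 RPKM), Bcl2 (0.877 ± 0.703 RPKM) and Pmaip1 (0.205 ± 0.233 RPKM) were low, and neighbours among these 4 overlapped, whereas all control libraries of Mcl1 lay above those of Bcl2l11. Thus Bcl2 lay below Bcl2l1 and Mcl1 in every control library. In Ribo-seq, Bax (59.9 ± 13.3 RPKM) and Txnip (58.3 ± 39.97 RPKM) were again the highest.

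**Figure D1:**
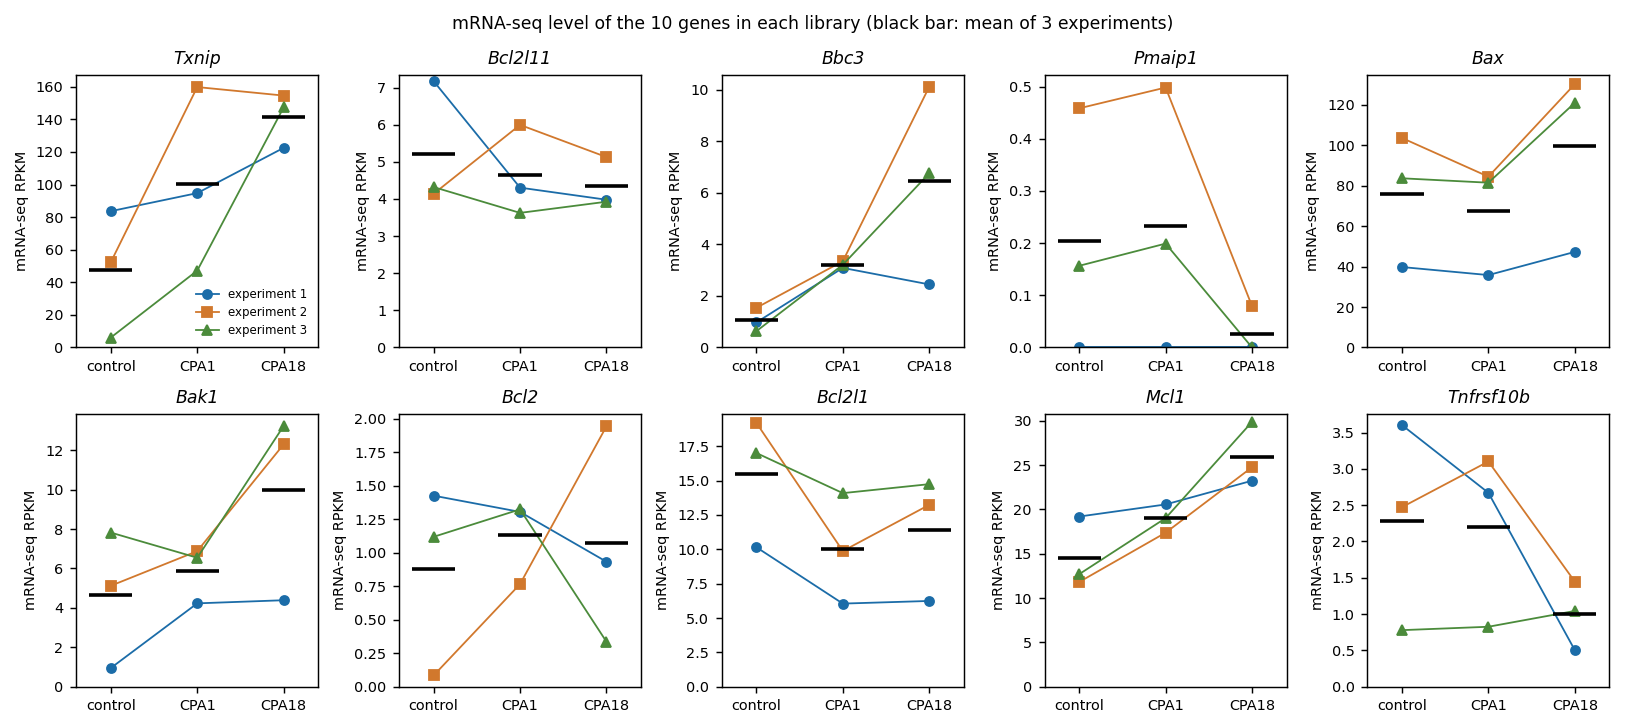
mRNA-seq RPKM (vertical axis, linear from 0, own scale in each panel) of the 10 genes in control, CPA1 and CPA18, with a line and marker for each of 3 experiments and a black bar for the mean. Txnip, Mcl1 and Bbc3 were higher in all CPA18 libraries than in all control libraries, and Bcl2l1 was lower in CPA18 in each experiment.

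Txnip mRNA rose with CPA. Its level was 83.6, 52.3 and 6.08 RPKM in control, 94.7, 159.8 and 47.2 RPKM in CPA1 and 123, 155 and 147 RPKM in CPA18. All CPA18 libraries lay above all control libraries, the CPA1 libraries overlapped both groups, and the control library of experiment 3 was the lowest. Within experiments, CPA18 was 1.46-fold, 2.95-fold and 24.2-fold the control. In edgeR's quasi-likelihood test with the experiment as a block and Benjamini-Hochberg adjustment, the log2 fold change was 2.09 ± 0.32 (SE, n = 3; adjusted p = 7.25e-08), where the median of all genes was 0.36. This SE draws on the spread of all genes and is narrow beside the 3 fold changes within experiments.

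This call was lost in 4 of 15 alternative fits. Without the block, the log2 fold change was 1.60 (adjusted p = 0.209, edgeR), without experiment 3 it was 1.03 (adjusted p = 0.0545), and DESeq2 gave 1.83 (adjusted p = 0.0522). When the library total excluded Ins1, Ins2 and Lars2, Txnip had 173, 72.8 and 9.02 RPKM in control and 280.1, 173 and 163 RPKM in CPA18, and the log2 fold change was 1.95 (adjusted p = 0.00868).

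After 1 h, Txnip mRNA was 1.13-fold, 3.05-fold and 7.76-fold the control in the 3 experiments, and the log2 fold change was 1.32 ± 0.30 (adjusted p = 0.00808, edgeR). It was the only one of the 6 tested genes to pass, where 0.719% of all genes did. The call was lost in 12 of 15 alternative fits, with log2 fold changes between 0.89 and 2.06. The adjusted p was 0.355 with the 3 abundant genes out of the total, 1.000 without the block, 0.0668 without experiment 2 and 0.484 without experiment 3, where the log2 fold change was 0.89. Without control experiment 2 the adjusted p was 0.106.

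Between CPA1 and CPA18, Txnip mRNA changed by a log2 value of 0.77 ± 0.29 (adjusted p = 0.0269, edgeR), where the median was 0.48 and 37.5% of all genes passed, and none of the other 5 tested genes did. This call was lost in 11 of 15 alternative fits, with 0.21 under TMM scaling (adjusted p = 0.754), 0.49 without the block (adjusted p = 0.660), 0.97 without experiment 1 (adjusted p = 0.0564) and 0.14 without experiment 3 (adjusted p = 0.817).

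**Figure D2:**
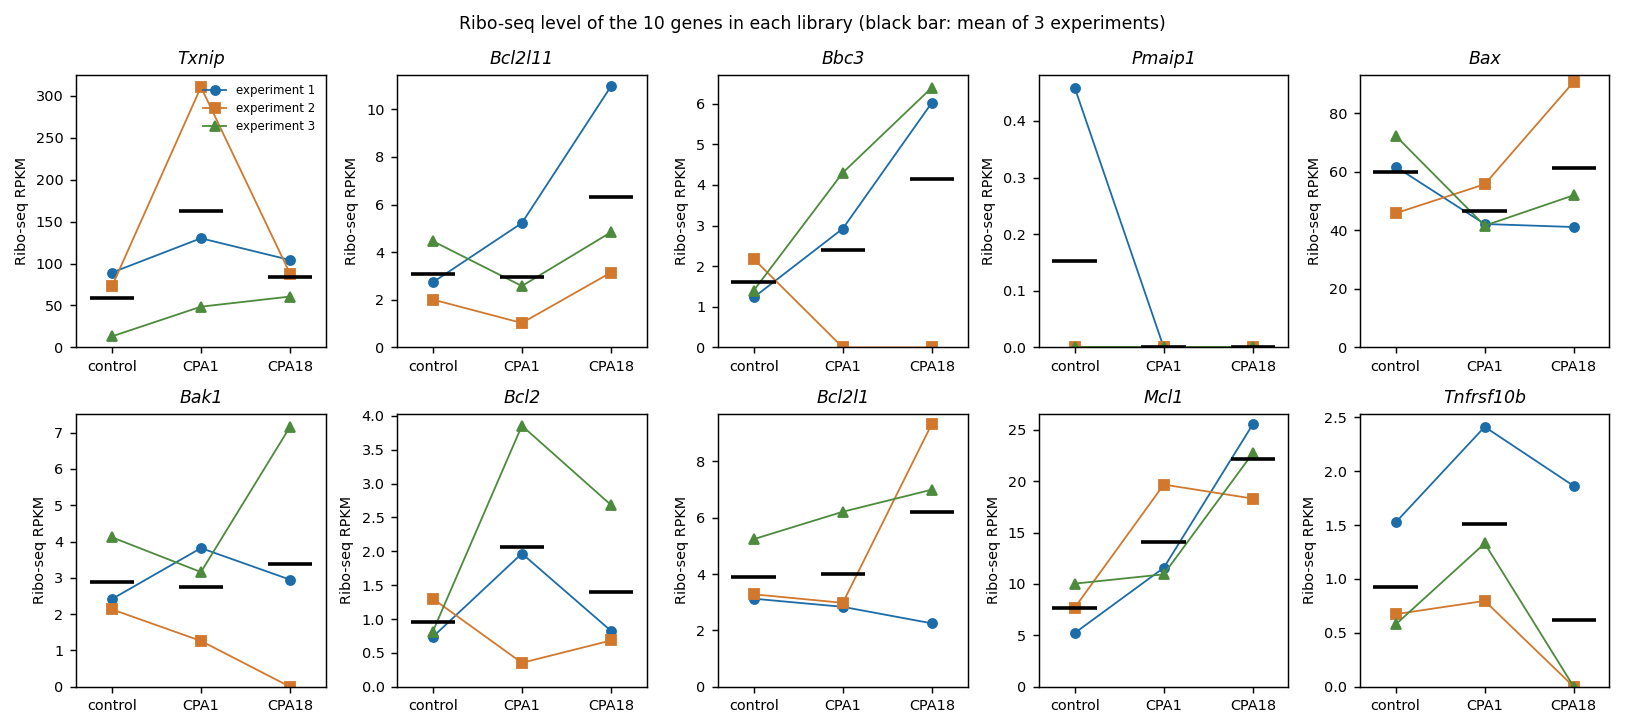
Ribo-seq RPKM (vertical axis, linear from 0, own scale in each panel) of the 10 genes in control, CPA1 and CPA18, with a line and marker for each of 3 experiments and a black bar for the mean. Mcl1 was higher in all CPA1 and CPA18 libraries than in control, and Txnip was highest in CPA1 in experiments 1 and 2.

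Ribosome footprints on Txnip rose within 1 h. The Ribo-seq level was 89.2, 72.6 and 13.2 RPKM in control, 130.1, 310.2 and 48.6 RPKM in CPA1 and 104, 87.9 and 60.6 RPKM in CPA18. Each experiment was higher in CPA1 than in its own control, although the groups overlapped, and from CPA1 to CPA18 experiments 1 and 2 were lower and experiment 3 was higher. The log2 fold change from control to CPA1 was 1.47 ± 0.19 (SE, n = 3; adjusted p = 2.36e-11, edgeR). Txnip was 1 of the 6 tested genes to pass, where 6.51% of all genes did. It passed in 14 of 15 alternative fits, with an adjusted p of 0.0286 without the block, and not in DESeq2 (1.41, adjusted p = 0.0880).

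By 18 h, the log2 fold change of Txnip footprints against control was 0.87 ± 0.21 (adjusted p = 0.000391, edgeR), where the median was 0.39. This call was lost in 7 of 15 alternative fits, with 0.49 under TMM scaling (adjusted p = 0.0745), 0.49 without the block (adjusted p = 0.423) and 0.22 without experiment 3 (adjusted p = 0.608). Between CPA1 and CPA18 footprints changed by a log2 value of -0.60 ± 0.21 (adjusted p = 0.0214, edgeR), and 22.5% of all genes passed there. Without the block it was -0.99 (adjusted p = 0.100), without control experiment 2 it was -0.57 (adjusted p = 0.0587), and without experiment 2, which holds the highest Txnip library of the assay, it was 0.08 (adjusted p = 0.887).

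Ribosome occupancy (Ribo-seq RPKM over mRNA-seq RPKM in the same experiment) of Txnip was 1.07, 1.39 and 2.17 in control, 1.37, 1.94 and 1.03 in CPA1 and 0.850, 0.569 and 0.411 in CPA18. All CPA18 values lay below all others, while control and CPA1 overlapped. The interaction of assay and treatment in edgeR did not pass, with a log2 fold change of -1.20 ± 0.49 from control to CPA18 (adjusted p = 0.419, unadjusted p = 0.0166) and 0.16 ± 0.47 from control to CPA1 (adjusted p = 0.979), the last of which turned negative in 8 of 12 alternative fits. From CPA1 to CPA18, a comparison added after the values were seen, it was -1.36 ± 0.47 (adjusted p = 0.715, unadjusted p = 0.00508). None of the 6 tested genes passed in occupancy with edgeR, DESeq2 or limma, where 0.0898%, 0.462% and 0.077% of all genes passed in edgeR in the 3 comparisons (CPA1 and CPA18 against control, and CPA18 against CPA1). At an unadjusted p under 0.05, 0 of the 6 passed from control to CPA1, where 7.03% of all genes did, and 1, Txnip, passed from control to CPA18, where 9.01% did, and from CPA1 to CPA18, where 5.68% did.

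Within libraries, the ratio of Txnip to Txn1, the cytosolic thioredoxin that TXNIP binds, was 0.916, 0.286 and 0.0400 in the control mRNA-seq libraries and 0.941, 0.479 and 0.533 in CPA18. It was higher in CPA18 in each experiment, but the groups overlapped (exact permutation test, two-sided, p = 0.4). In Ribo-seq it was 0.574, 0.596 and 0.0910 in control, 0.806, 1.66 and 0.511 in CPA1 and 0.409, 0.408 and 0.302 in CPA18. There CPA18 was lower than control in experiments 1 and 2 and higher in experiment 3 (exact permutation p = 1), and lower than CPA1 in each experiment, at a mean of 0.419-fold (exact permutation p = 0.1). With 3 against 3 libraries this test cannot go below 0.1, and it does not use the pairing of libraries by experiment. It can therefore not reach 0.05 for any ratio. In both assays 6 ratios were compared, each between all 3 pairs of treatments, and the p-values were not adjusted for this number. For the ratio of Txnip to Bax against control, the exact permutation p was 0.3 in CPA1 and in CPA18 in mRNA-seq. In Ribo-seq it was 0.3 in CPA1 and 0.6 in CPA18.

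Mcl1 rose in both assays by 18 h. In mRNA-seq its level was 19.2, 11.8 and 12.7 RPKM in control, 20.6, 17.4 and 19.0 RPKM in CPA1 and 23.2, 24.8 and 29.9 RPKM in CPA18. The CPA18 libraries lay above all others, and CPA1 overlapped control only through control experiment 1. Its log2 fold change was 0.89 ± 0.29 from control to CPA18 (adjusted p = 0.0119, edgeR) and 0.43 ± 0.29 to CPA1 (adjusted p = 0.975). The call at 18 h was lost in 6 of 15 alternative fits. Its fitted log2 change was then 0.85 without the block (adjusted p = 0.292), 0.49 with TMM scaling (adjusted p = 0.0622), 0.53 with DESeq2 (adjusted p = 0.0917), 0.70 without experiment 3 (adjusted p = 0.275) and 0.81 without control experiment 2 (adjusted p = 0.108).

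In Ribo-seq, Mcl1 had 5.22, 7.69 and 10.0 RPKM in control, 11.6, 19.7 and 10.9 RPKM in CPA1 and 25.5, 18.3 and 22.7 RPKM in CPA18. All CPA1 and all CPA18 libraries lay above all control libraries, although these levels rest on 13 to 44 reads a library. Within experiments, CPA18 was 4.89-fold, 2.38-fold and 2.26-fold the control. The log2 fold change was 1.50 ± 0.33 (SE, n = 3; adjusted p = 6.56e-05, edgeR), and it passed in all 15 alternative fits, with log2 fold changes from 1.14 to 1.73. To CPA1 it was 0.84 ± 0.32 (adjusted p = 0.100), which did not pass. Ribosome occupancy of Mcl1 was 0.272, 0.650 and 0.789 in control and 1.10, 0.739 and 0.760 in CPA18, which overlapped, and its change did not pass (0.62 ± 0.43, adjusted p = 0.699).

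In CPA18, 2 of the 6 tested genes, Txnip and Mcl1, passed in mRNA-seq, where 33.6% of all genes did, and the same 2 passed in Ribo-seq, where 30.9% did. These shares are close to the background. Without the block neither passed in mRNA-seq, where 1.98% of all genes did. For the 6 genes the median log2 fold change in CPA18 in mRNA-seq was 0.51, and in Ribo-seq 0.93. By direction alone (RPM), 5 of the 9 genes with reads in every mRNA-seq library were higher in CPA18 in all 3 experiments (Txnip, Mcl1, Bbc3, Bax and Bak1), as 36.4% of genes were, and 4 of 6 in Ribo-seq (Txnip, Mcl1, Bcl2l11 and Bcl2, the last by RPM but not by RPKM), as 40.7% were.

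**Figure D3:**
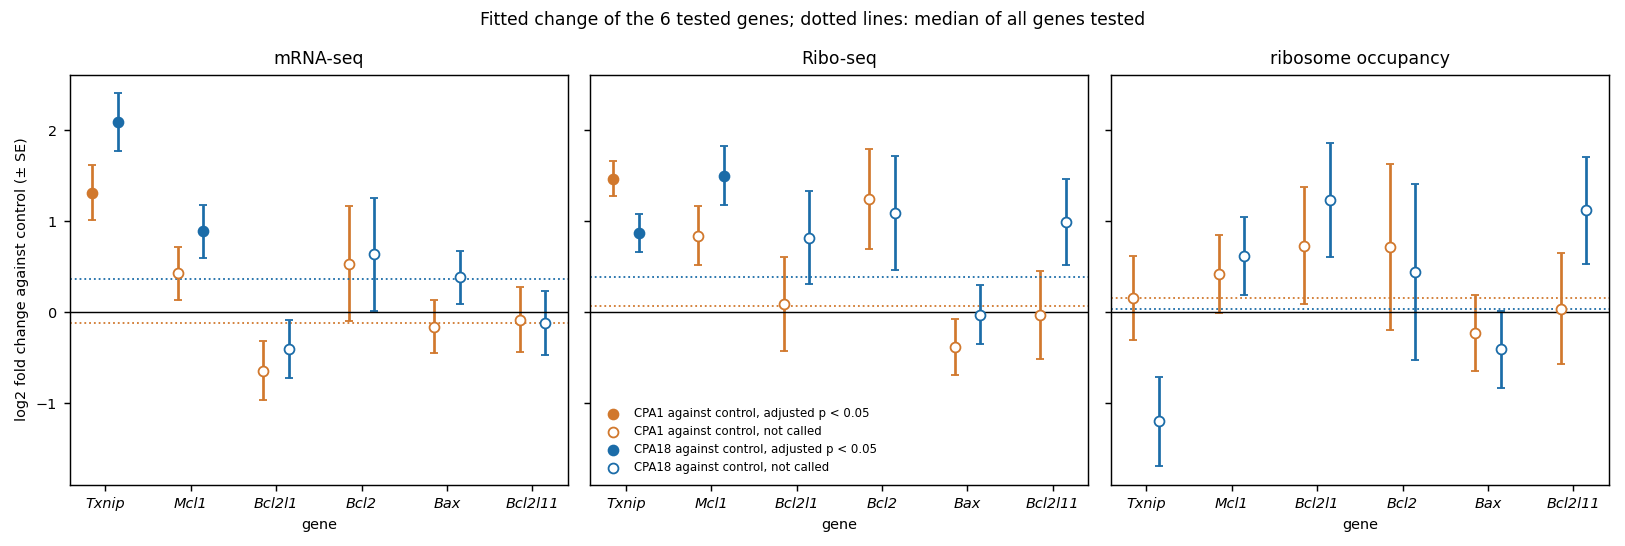
Fitted log2 fold change against control (vertical axis, ± SE) of the 6 tested genes in mRNA-seq, Ribo-seq and ribosome occupancy, for CPA1 (orange) and CPA18 (blue). Filled points passed at an adjusted p under 0.05 (Txnip in both treatments and both assays, Mcl1 in CPA18 in both assays), open points did not, and dotted lines give the median of all genes tested.

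Among the other pro-survival genes, Bcl2l1 had 10.1, 19.2 and 17.01 RPKM in the control mRNA-seq libraries, 6.05, 9.87 and 14.1 RPKM in CPA1 and 6.24, 13.2 and 14.7 RPKM in CPA18. It was lower than control in each experiment at both times, with overlapping groups, and the log2 fold change of -0.40 ± 0.32 in CPA18 did not pass (adjusted p = 0.340, edgeR). Another scaling changed the call. When the total excluded Ins1, Ins2 and Lars2, the levels were 21.0, 26.7 and 25.2 RPKM in control, 15.1, 19.9 and 19.0 RPKM in CPA1 and 14.3, 14.8 and 16.3 RPKM in CPA18, and neither CPA group overlapped control. Its fitted log2 change in CPA18 was then -0.67 (adjusted p = 0.0300), and it was -0.87 with TMM scaling (adjusted p = 0.00827) and -0.82 with DESeq2 (adjusted p = 0.0288). In Ribo-seq, Bcl2l1 had 1 to 12 reads a library and a log2 fold change of 0.82 ± 0.51 in CPA18 (adjusted p = 0.223). Its occupancy was 0.308, 0.171 and 0.308 in control and 0.360, 0.705 and 0.475 in CPA18, which did not overlap, but the change of 1.24 ± 0.63 did not pass (adjusted p = 0.561).

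Bcl2 had 1 to 36 reads a library in mRNA-seq and 1 to 6 in Ribo-seq. Its mRNA-seq level was 1.43, 0.0843 and 1.12 RPKM in control and 0.933, 1.94 and 0.336 RPKM in CPA18, lower in experiments 1 and 3 and higher in experiment 2, where control rests on 1 read. The log2 fold change in CPA18 was 0.64 ± 0.62 in mRNA-seq (adjusted p = 0.449, edgeR) and 1.09 ± 0.63 in Ribo-seq (adjusted p = 0.218). In Ribo-seq it had 0.736, 1.30 and 0.814 RPKM in control and 0.826, 0.683 and 2.68 RPKM in CPA18, lower in experiment 2 (4 reads in control and 1 in CPA18), and a difference was not detectable at this depth.

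A ratio of 2 genes within a library does not depend on the library total. The ratio of Mcl1 to Bcl2l1 in mRNA-seq was 1.89, 0.616 and 0.747 in control, 3.40, 1.76 and 1.35 in CPA1 and 3.72, 1.87 and 2.03 in CPA18. It was higher in each experiment at both times, by a mean of 2.10-fold and 2.53-fold, although control experiment 1 overlapped the CPA groups (exact permutation test, two-sided, p = 0.3 and p = 0.2). In Ribo-seq the log2 changes of this ratio in the 3 experiments were 1.29, 1.49 and -0.12 in CPA1 and 2.76, -0.26 and 0.76 in CPA18, so that 1 experiment was lower at each time.

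Of the effectors, Bax did not pass the test. It had 39.8, 104 and 83.6 RPKM in control, 35.8, 84.4 and 81.4 RPKM in CPA1 and 47.3, 130.2 and 121 RPKM in CPA18 in mRNA-seq. It was lower in CPA1 and higher in CPA18 than in control in each experiment, but experiment 1 was the lowest in every treatment and the groups overlapped. With Ins1, Ins2 and Lars2 out of the total, Bax had 82.2, 144 and 124 RPKM in control and 89.2, 170.4 and 109.7 RPKM in CPA1, higher in experiments 1 and 2, and the log2 fold change in CPA1 was 0.043 against -0.16 with the full total. The log2 fold change in CPA18 was 0.38 ± 0.29 (adjusted p = 0.311, edgeR), close to the median of all genes, and -0.06 with TMM scaling. In Ribo-seq, Bax had 61.7, 45.8 and 72.2 RPKM in control and 41.1, 90.7 and 51.9 RPKM in CPA18, with a log2 fold change of -0.03 ± 0.32 (adjusted p = 0.964). The occupancy of Bax was 1.55, 0.442 and 0.864 in control and 0.870, 0.696 and 0.429 in CPA18, which overlapped.

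Bax was also set against the pro-survival genes within libraries. The mRNA-seq ratio of Bax to Bcl2l1 was 3.92, 5.39 and 4.92 in control and 7.57, 9.84 and 8.21 in CPA18, with no overlap, log2 changes of 0.95, 0.87 and 0.74 within experiments and a mean of 1.81-fold (exact permutation test, two-sided, p = 0.1, the smallest possible). In Ribo-seq the mean was 0.703-fold, lower in each experiment (exact permutation p = 0.3), where Bcl2l1 had 1, 5 and 9 reads in CPA18. The difference between assays was not tested. The Ribo-seq ratio of Bax to Mcl1 was 11.8, 5.96 and 7.20 in control, 3.64, 2.83 and 3.80 in CPA1 and 1.61, 4.95 and 2.29 in CPA18. All CPA values lay below all control values, at a mean of 0.426-fold and 0.330-fold (exact permutation test, two-sided, p = 0.1 for each, the smallest possible). The CPA18 values rest on 6, 16 and 25 reads of Bax and 15, 13 and 44 reads of Mcl1. In mRNA-seq this ratio was also lower in each experiment, at a mean of 0.672-fold and 0.713-fold, but the groups overlapped (exact permutation p = 0.5 for each).

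Bak1 had no read in 1 Ribo-seq library and was outside the test. In mRNA-seq it had 0.951, 5.12 and 7.82 RPKM in control and 4.39, 12.3 and 13.2 RPKM in CPA18, higher in each experiment with overlapping groups. Among the 10125 genes with a read in every mRNA-seq library, a filter chosen after the data were seen, its log2 fold change in CPA18 was 1.03 ± 0.39 (adjusted p = 0.0504, edgeR), which did not pass.

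Among the BH3-only genes, Bbc3 rose in mRNA-seq. It had 0.971, 1.54 and 0.630 RPKM in control (1, 5 and 3 reads), 3.09, 3.34 and 3.21 RPKM in CPA1 (10, 10 and 12 reads) and 2.44, 10.1 and 6.75 RPKM in CPA18 (6, 95 and 24 reads). All CPA1 and all CPA18 libraries lay above all control libraries, although the control level rests on 9 reads. With the added filter on mRNA-seq reads, the log2 fold change was 2.74 ± 0.55 in CPA18 (SE, n = 3; adjusted p = 0.000593, edgeR) and 1.81 ± 0.60 in CPA1 (adjusted p = 0.417), where 0.217% of genes passed. With this filter 3 of 9 members (Txnip, Mcl1 and Bbc3) passed in CPA18, where 27.2% of genes did. In CPA18, Bbc3 passed also without the block (2.67, adjusted p = 0.0449) and with the 3 abundant genes out of the total (2.45, adjusted p = 0.00253). In Ribo-seq, Bbc3 had 0 to 7 reads a library and none in experiment 2 of CPA1 and CPA18, so a change was not detectable at this depth.

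Bcl2l11 did not pass in either assay. Its mRNA-seq values were 7.18, 4.14 and 4.32 RPKM in control and 3.98, 5.13 and 3.93 RPKM in CPA18, which overlapped, and the log2 fold change was -0.12 ± 0.35 (adjusted p = 0.822, edgeR). In Ribo-seq it had 2 to 17 reads a library and a log2 fold change of 0.99 ± 0.47 (adjusted p = 0.0944). The mRNA-seq ratio of Bcl2l11 to Mcl1, a pro-survival protein that BIM binds, was 0.374, 0.350 and 0.340 in control and 0.171, 0.207 and 0.131 in CPA18, with no overlap and a mean of 0.471-fold (exact permutation test, two-sided, p = 0.1, the smallest possible). In Ribo-seq the mean was 0.637-fold, with overlapping groups (exact permutation p = 0.2). Pmaip1 had 7 reads in the 9 mRNA-seq libraries together and 1 in the 9 Ribo-seq libraries, so a change was not detectable.

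Tnfrsf10b had 3.60, 2.47 and 0.779 RPKM in control and 0.504, 1.45 and 1.04 RPKM in CPA18 in mRNA-seq, from 2 to 22 reads. It was lower in CPA18 in experiments 1 and 2 and higher in experiment 3, and the log2 fold change of -0.86 ± 0.54 did not pass with the added filter (adjusted p = 0.239, edgeR). In Ribo-seq it had 0 to 4 reads a library, and none in CPA18 of experiments 2 and 3.

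**Figure D4:**
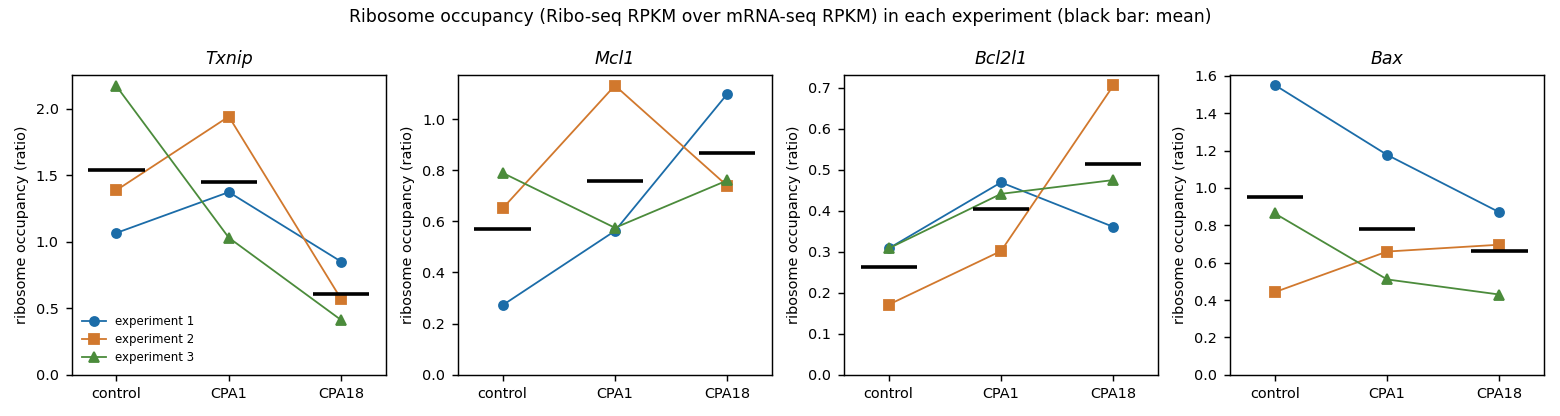
Ribosome occupancy (vertical axis, Ribo-seq RPKM over mRNA-seq RPKM, linear from 0, own scale in each panel) of Txnip, Mcl1, Bcl2l1 and Bax in control, CPA1 and CPA18, with a line and marker for each of 3 experiments and a black bar for the mean. The CPA18 values of Txnip lay below all others and those of Bcl2l1 above all control values, and no change passed the test.

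The summed level of the 3 pro-survival genes was 30.8, 31.1 and 30.8 RPKM in control and 30.4, 39.9 and 45.0 RPKM in CPA18 in mRNA-seq, which overlapped. In Ribo-seq the sum was 9.09, 12.3 and 16.1 RPKM in control, 16.4, 22.99 and 21.0 RPKM in CPA1 and 28.6, 28.3 and 32.4 RPKM in CPA18. These 3 groups did not overlap, and Mcl1 made up most of the sum in every library. The Ribo-seq sum of Bax and Bak1 was 64.1, 47.9 and 76.4 RPKM in control and 44.0, 90.7 and 59.1 RPKM in CPA18, which overlapped. For the BH3-only genes the mRNA-seq sum was 8.15, 6.14 and 5.11 RPKM in control. In CPA18 it was 6.42, 15.32 and 10.68 RPKM, lower in experiment 1. Their Ribo-seq sum was 4.43, 4.19 and 5.87 RPKM in control and 16.99, 3.15 and 11.24 RPKM in CPA18, lower in experiment 2. The BH3-only sums thus had higher means in CPA18 in both assays, with overlapping groups. Their footprints rest on few reads.

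The wider apoptosis machinery was described from lists of other genes, with log2 fold changes ± SE (n = 3) against control. Over all genes tested in CPA18, 25.9% rose and 7.69% fell in mRNA-seq, and 24.6% rose in Ribo-seq. Of 16 other BCL-2 family genes, 5 were tested, and in CPA18 1 fell in mRNA-seq, Bnip3, which acts in mitophagy (-0.83 ± 0.33, adjusted p = 0.0432, edgeR). The Bnip3 call was lost in 8 of 15 alternative fits. In Ribo-seq 1 rose, the pro-survival gene Bcl2l2 (Bcl-w; 1.73 ± 0.50, adjusted p = 0.00413). This rests on 7, 3 and 9 reads in control and 6, 4 and 10 in the smaller CPA18 libraries. The BH3-only gene Bad (0.57 ± 0.30 in mRNA-seq), Bcl2l13 (0.37 ± 0.35) and Bnip3l (0.02 ± 0.46) did not pass.

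Of 14 caspase and apoptosome genes, 9 were tested, and 3 rose in mRNA-seq in CPA18. They were Cycs, which encodes cytochrome c (1.34 ± 0.26, adjusted p = 1.98e-05, edgeR), the caspase gene Casp2 (1.37 ± 0.37, adjusted p = 0.00240) and Endog, a mitochondrial nuclease (1.27 ± 0.38, adjusted p = 0.00621). The Endog call was lost in 7 of 15 alternative fits. The median of the 9 was 0.74. The initiators Casp9 (0.59 ± 0.32) and Casp8 (0.50 ± 0.63) did not pass. In Ribo-seq 4 rose, Cycs among them (1.25 ± 0.19, adjusted p = 2.62e-09). Of all genes tested, 25.9% rose in mRNA-seq and 24.6% in Ribo-seq.

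Of 8 inhibitor of apoptosis (IAP) genes and their antagonists, 5 were tested. In mRNA-seq in CPA18, the mitochondrial IAP antagonists Diablo (Smac; 0.98 ± 0.26, adjusted p = 0.00233, edgeR) and Htra2 (1.25 ± 0.34, adjusted p = 0.00247) rose. Birc6, a large IAP, fell (-1.42 ± 0.51, adjusted p = 0.0220), and Birc5 (survivin) did not pass (-0.48 ± 0.28). The Birc6 call rests on 14, 14 and 7 reads in control and 6, 19 and 3 in CPA18. It was lost in 7 of 15 alternative fits, and Birc6 did not pass in Ribo-seq. In Ribo-seq 1 rose, Diablo (0.81 ± 0.29, adjusted p = 0.0249). This Diablo call was lost in 8 of 15 alternative fits. With Ins1, Ins2 and Lars2 out of the total, none of this list passed as higher in Ribo-seq in CPA18.

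Of 16 genes of death receptor signalling, 9 were tested, and 4 rose in mRNA-seq in CPA18. They were Tnfrsf12a, the receptor for TWEAK (2.49 ± 0.30, adjusted p = 1.79e-11, edgeR), the adaptor Traf2 (1.15 ± 0.33), the TNF receptor Tnfrsf1a (0.83 ± 0.27) and Daxx (1.13 ± 0.38). The Daxx call was lost in 7 of 14 alternative fits, and those of Traf2 and Tnfrsf1a in 6 of 15 each. In Ribo-seq 2 rose, Tnfrsf12a (2.83 ± 0.28) and Cflar, which encodes the caspase-8 inhibitor FLIP (1.30 ± 0.46, adjusted p = 0.0209). These counts, too, stand beside 25.9% and 24.6% of all genes. The Cflar call was lost in 9 of 14 alternative fits. Its Ribo-seq level was 3.15, 1.27 and 1.99 RPKM in control and 2.71, 7.85 and 4.84 RPKM in CPA18, lower in experiment 1. The CPA18 levels rest on 3, 6 and 18 reads.

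**Figure D5:**
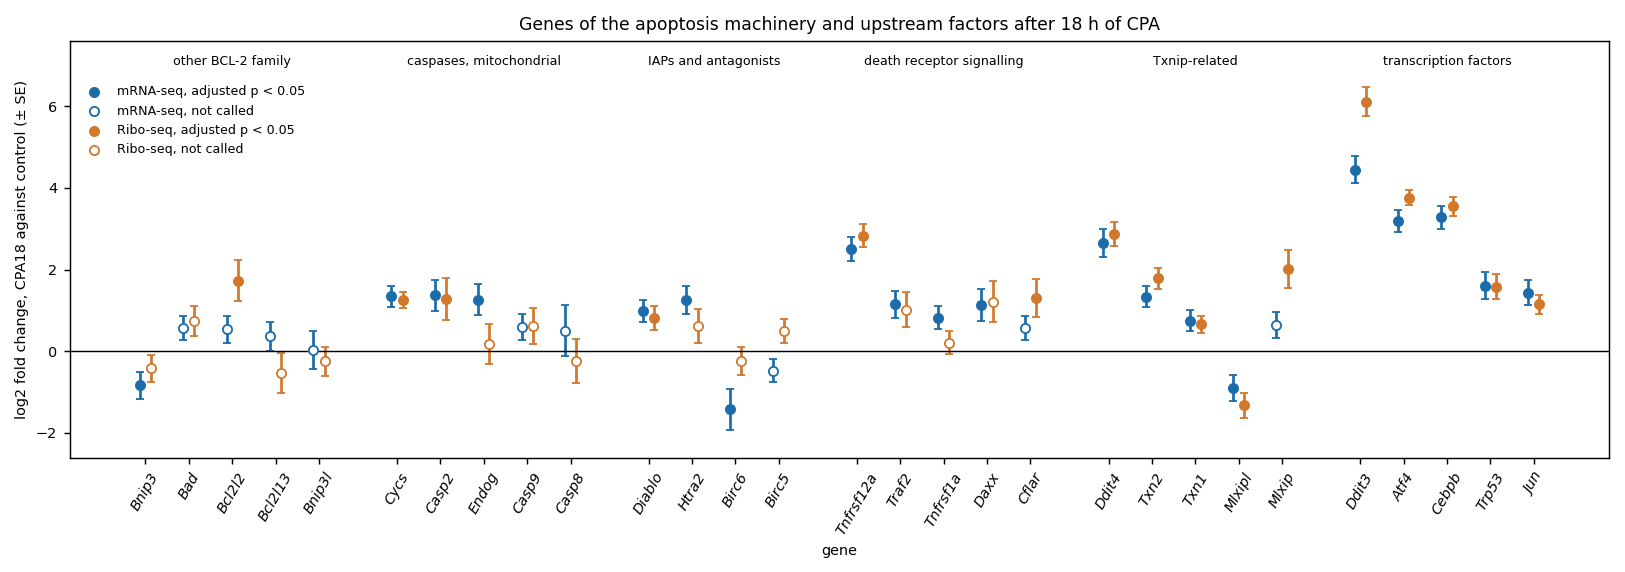
Fitted log2 fold change from control to CPA18 (± SE) in mRNA-seq (blue) and Ribo-seq (orange) for named genes of 6 lists around apoptosis and Txnip. Ddit3, Atf4 and Cebpb rose most, and Mlxipl was lower in both assays.

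Around Txnip, 9 of 17 partners and relatives were tested. In mRNA-seq in CPA18, 3 rose and 1 fell, where 25.9% and 7.69% of all genes did. Ddit4 (REDD1), an inhibitor of mTORC1 (2.65 ± 0.33, adjusted p = 1.35e-10, edgeR), the mitochondrial thioredoxin Txn2 (1.34 ± 0.25, adjusted p = 1.58e-05) and the cytosolic thioredoxin Txn1 (0.75 ± 0.25, adjusted p = 0.0156) rose. Of the glucose-sensing factors known to drive Txnip, Mlxipl fell in mRNA-seq (-0.91 ± 0.32, adjusted p = 0.0200) and in Ribo-seq (-1.32 ± 0.31, adjusted p = 0.000238). Mlxip rose in Ribo-seq (2.02 ± 0.47, adjusted p = 0.000212) and did not pass in mRNA-seq (0.64 ± 0.31). Its Ribo-seq level was 0.626, 2.54 and 1.48 RPKM in control (2, 12 and 10 reads). In CPA18 it was 8.13, 2.02 and 5.99 RPKM (10, 3 and 19 reads), lower in experiment 2. This Ribo-seq call was lost in 4 of 15 alternative fits. After 1 h, Ddit4 (1.18 ± 0.32, adjusted p = 0.00696) and Mlxip (1.57 ± 0.45, adjusted p = 0.0136) had risen in Ribo-seq, where 3.72% of all genes had. The Mlxip call at 1 h was lost in 6 of 14 alternative fits. In experiment 2 its level was 2.54 RPKM in control and 2.44 RPKM in CPA1.

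Of 13 upstream transcription factors and p53 pathway genes, 10 were tested, and 6 rose and 1 fell in mRNA-seq in CPA18, where 25.9% and 7.69% of all genes did. Among those that rose were Ddit3, which encodes CHOP, known to induce death genes under ER stress (4.45 ± 0.33, adjusted p = 3.93e-22, edgeR), Cebpb (3.28 ± 0.28) and Atf4 (3.19 ± 0.27). Trp53, which encodes p53, an activator of Bbc3 and Pmaip1, rose in mRNA-seq (1.61 ± 0.33) and Ribo-seq (1.58 ± 0.30). After 1 h, 3 had risen in mRNA-seq, Jun among them (2.50 ± 0.31, adjusted p = 5.64e-10), where 0.449% of all genes had, and 6 in Ribo-seq, where 3.72% had.

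Most of these mRNA-seq calls were lost without the block. The genes named from the lists that still passed without it in CPA18 in mRNA-seq were Ddit3, Atf4, Cebpb, Ddit4 and Tnfrsf12a, with an adjusted p of 0.00116, 0.0123, 0.0187, 0.0202 and 0.0357 in edgeR.

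The genes whose levels ran most like Txnip, among 5170 genes over the 9 mRNA-seq and 9 Ribo-seq libraries, were Klf10 (0.83), Jun (0.78), Ppm1d (0.78), Bhlhe41 (0.77), Irf2bp2 (0.75) (mean Pearson r of both assays in brackets). For Bbc3 they were Rassf7 (0.80), Ccdc117 (0.80), Mapk1ip1 (0.79), Mphosph6 (0.78), Paip2b (0.78). These are descriptions over libraries that share treatments, experiments and depth, and those of Bbc3 rest on few reads.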

How the data were processed

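The authors kept reads of 15 to 40 bases that passed a quality filter, mapped them by Bowtie2 (version not given in the sources used here) against GRCm38.p6 RNA, and deposited the counts of reads on each RefSeq transcript. The deposited RPKM values scale these to transcript length and library total. Here both were summed per gene, because a read shared by transcripts of a gene cannot be assigned. The 30741 transcripts were joined to RefSeq genes (30232 by versioned name, 478 by name alone, 31 left unjoined).

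Libraries were grouped by the titles. The 7794 genes that had 1 read or more in each of the 18 libraries entered edgeR 4.0.16 (R 4.3.3; quasi-likelihood test, total count as library size, the 3 treatments of an assay fitted together, replicate number as a block). Occupancy used the assay by treatment interaction. Benjamini-Hochberg adjustment ran over all genes tested, with a threshold of 0.05. The test draws the spread of each gene toward that of all genes tested. Its p-values and SE therefore do not rest on the 3 experiments of a gene alone. An SE can be narrow beside the differences between experiments. The labels describe the replicate number as a batch, and deviations from treatment means correlated in all 9 pairs of each assay (mean r 0.554 in mRNA-seq and 0.141 in Ribo-seq, lowest 0.0895). Ratios were compared by exact permutation tests.

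Alternatives were TMM, a library total without Ins1, Ins2 and Lars2, DESeq2 1.42.0, limma 3.58.1 on log2(RPKM + 0.5) and log2(RPKM + 1), no filter, a filter on transcripts, no block, and leaving out each experiment or control replicate 2. Filters on the reads of 1 assay were added after the data were seen. On simulated counts for mRNA-seq in CPA18 (7794 genes, 200 changed by a log2 value of 1), the fit called 57 of the changed genes and 4 others with the block, and 0 without it. The counts were simulated from the fit with the block, with the same change in every experiment. They therefore cannot decide between the calls with and without the block. Members and lists were chosen with earlier results of these data known. Named are all 10 members, from each other list up to 4 genes with the smallest p in mRNA-seq in CPA18 and up to 2 with the smallest p in CPA1 in mRNA-seq or occupancy, and for Txnip, Bbc3 and Bcl2 the 5 genes of most similar log2(RPKM + 0.5) pattern with a mean mRNA-seq level of at least 5 RPKM; the genes for Bcl2 are not reported here. Python 3.11.15, numpy 2.4.6, pandas 2.3.3 and matplotlib 3.10.9 were used for the rest.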

Additional observations from a re-analysis of the deposited data

How the results depend on the processing

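Where a call changed, the cause was not tested. The number of members called in mRNA-seq in CPA1, 1 in the report, was 0 with TMM, with the total without Ins1, Ins2 and Lars2, with DESeq2, with limma, without the block and with all 3 fits on reads of the assay, and 0 to 1 when a replicate was left out. From CPA1 to CPA18 in mRNA-seq, 1 in the report, it was 0 under the same alternatives and 0 to 1 when a replicate was left out, except that reads of the assay with the total without the 3 genes gave 1, which was Tnfrsf10b and not Txnip. In mRNA-seq in CPA18, 2 in the report, it was 1 with DESeq2 (Bcl2l1, so that neither Txnip nor Mcl1 passed), 2 with TMM (Txnip and Bcl2l1), 3 with the total without the 3 genes (Bcl2l1 added), 0 without the block, 0 to 2 when a replicate was left out and, of 9 members with reads in every mRNA-seq library, 4 with the total without the 3 genes and 1 (Bbc3) without the block. In Ribo-seq in CPA1, 1 in the report, it was 0 with DESeq2 and 1 to 1 when a replicate was left out. In Ribo-seq in CPA18, 2 in the report, it was 1 with TMM, DESeq2, limma and without the block under either filter, and 1 to 2 when a replicate was left out. From CPA1 to CPA18 in Ribo-seq, 1 in the report, it was 0 with DESeq2, limma and without the block under either filter, and 0 to 1 when a replicate was left out. In occupancy it was 0 in all alternatives run.

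Directions changed in these log2 fold changes. Bax in mRNA-seq in CPA18 was -0.057 with TMM and -0.029 with DESeq2. With a replicate left out, the values in CPA18 ranged over -0.49 to 0.33 for Bax in Ribo-seq (above 0 without replicate 1 or 3), -0.42 to 0.063 for Bcl2l11 in mRNA-seq (above 0 without replicate 1) and -0.83 to 1.68 for Bcl2 in mRNA-seq (below 0 without replicate 2 or control replicate 2), and over -1.15 to 0.083 for Txnip in Ribo-seq from CPA1 to CPA18 (above 0 without replicate 2). Txnip occupancy in CPA1 was -0.12 with TMM, -0.18 with the total without the 3 genes, -0.086 with DESeq2, -0.055 and -0.037 with limma, and -0.14 to 0.47 with a replicate left out. Without the replicate block, the calls of the 6 tested members that held were Txnip in Ribo-seq in CPA1 and Mcl1 in Ribo-seq in CPA18, Bbc3 in mRNA-seq in CPA18 held under the added filter, and all genes called in mRNA-seq in CPA18 numbered 154 against 2617. Depth limits Pmaip1, Bcl2 and Tnfrsf10b. It also limits the footprints of Bbc3, Bak1, Bcl2l1, Bcl2l11 and the listed gene Bcl2l2, which had at most 17 reads in a Ribo-seq library. Bax footprints in CPA18 rest on 6, 16 and 25 reads.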
